A study of Homo sapiens with 8 samples.

Results

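The genes described here encode the adhesion proteins of the desmosome and the plaque proteins beneath them: the desmogleins DSG1, DSG2 and DSG3, the desmocollins DSC1, DSC2 and DSC3, plakoglobin (JUP), the plakophilins PKP1 and PKP3, and desmoplakin (DSP). They were taken by symbol, 1 row each, and are 10 of the 24252 genes listed for every library. RNA had been sequenced from HaCaT, a spontaneously immortalised keratinocyte line from human skin. The OGD-R group held 4 libraries of cells labelled OGD/R, the usual short form for oxygen-glucose deprivation and reperfusion, sampled at a stage the study calls early, and the Control group held 4 libraries of HaCaT cells with no treatment named. The sources used here state no durations and do not say whether replicates were separate cultures. The p-values therefore weigh the group difference only against how far libraries of a group lie apart, and that spread may be technical. By its title the series looked for a hub gene of complex regional pain syndrome.

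Desmosomes are spot-like junctions that hold keratinocytes together under mechanical load. Desmogleins and desmocollins of neighbouring cells bind each other outside the cell, plakoglobin and plakophilins bind their tails inside it, and desmoplakin ties this plaque to keratin filaments. In epidermis the make-up changes with the layer: DSG3 and DSC3 are strongest in the basal layer, DSG1 and DSC1 in the layers above it, and DSG2 and DSC2 are the forms of simple epithelia.

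OGD-R cells had more RNA of DSC3, PKP1, DSG3 and DSG1 than Control cells, and no member was called lower. DSC3 and PKP1 were each 2.25-fold higher, DSG3 2.24-fold and DSG1 5.11-fold, on the log2(FPKM + 1) scale, where the size for DSG1 depends on the pseudocount. JUP, DSP, DSG2, DSC2 and PKP3 did not pass the test, and their OGD-R values lay inside or overlapped the range of the Controls. Of the 9 members with a mean of at least 1 FPKM, 4 were called higher with limma at a Benjamini-Hochberg adjusted p of 0.05, where 10.2% of the 11740 genes tested were called higher, and 0 were called lower, where 9.69% were. Without any single OGD-R library, 2 members, DSC3 and PKP1, were called higher. The median log2 fold change was 0.62 over these 9 members and 0.02 over all genes tested. DSC1 was below the level needed for a test and is given by its values.

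The Control libraries lay in 2 places, which touches nearly every value below. Pearson's r of log2 values across genes was 0.991 to 0.993 for any pair of OGD-R libraries, for Controls 1 and 2, and for Controls 3 and 4. From one Control pair to the other it was 0.873 to 0.881. It was 0.940 to 0.947 from OGD-R to Controls 1 and 2 and 0.879 to 0.887 from OGD-R to Controls 3 and 4, and genes are not independent replicates. Results are therefore also given for OGD-R against Controls 1 and 2 alone and against Controls 3 and 4 alone. The p-values of such a fit rest on the spread within one pair and within OGD-R. Summed FPKM lay between 428984 and 475385 per library. RNAs encoded in mitochondria, taken by the symbol prefix MT-, made up 26.6% to 29.1% of this sum in OGD-R and 17.5% to 21.9% in Control. When libraries were rescaled without these RNAs, the same 4 members were called. All 10 keratinocyte markers were expressed, with a summed level of 16500 to 17540 FPKM in OGD-R and 13280 to 21870 FPKM in Control. Of the 23 markers of fibroblasts, melanocytes, endothelium and leukocytes, 21 stayed below 1 FPKM in every library, TYR and COL1A2 being listed at 0 throughout. The other two were COL1A1, with a maximum of 8.69 FPKM, and CD68, with a maximum of 16.7 FPKM. The leukocyte sum, mostly CD68, was 3.07 to 3.91 FPKM in OGD-R and 12.3 to 16.8 FPKM in Control. Its part in the results was not tested. In bulk RNA, more cells with a transcript and more transcript per cell cannot be told apart.

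**Figure D1:**
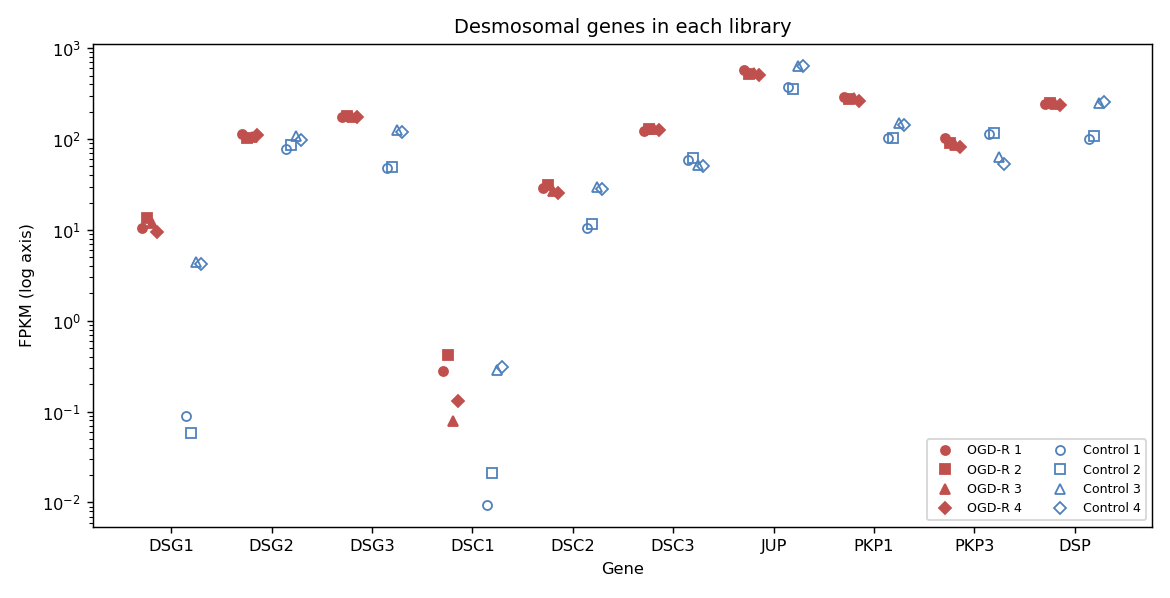
Level of each desmosomal gene in FPKM on a log axis, with 1 point per library (filled red, OGD-R 1 to 4; open blue, Control 1 to 4). OGD-R libraries of one gene lie close together except for DSC1, while Controls 1 and 2 and Controls 3 and 4 form separate pairs for most genes. DSC3, PKP1, DSG3 and DSG1 are higher in every OGD-R library than in any Control library.

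The order of the members by mean level was JUP, PKP1, DSP, DSG3, DSC3, DSG2, PKP3, DSC2, DSG1 and DSC1 in OGD-R cells. FPKM divides by transcript length, so levels can be compared between genes. In OGD-R the ranges of these genes over the libraries did not overlap, although the lowest DSG2 value (103.8 FPKM) and the highest PKP3 value (103.6 FPKM) nearly met. In Control cells the order was JUP, DSP, PKP1, DSG2, PKP3, DSG3, DSC3, DSC2, DSG1 and DSC1. There the ranges of DSP, PKP1, DSG2, PKP3, DSG3 and DSC3 overlapped in part, and the order of their means did not hold within each library. PKP1 was nonetheless above DSG2 in each Control, at 102, 104, 149 and 142 FPKM in Controls 1 to 4. DSG2 stood there at 77.0, 85.9, 107 and 98.1 FPKM. JUP was the most abundant member in every library and stood at rank 90 of the genes tested by mean level over all libraries. Of the 10 members, 7 were among the 1000 genes with the highest mean.

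The desmogleins bind across the gap between cells, and DSG1 and DSG3 are the targets of autoantibodies in the blistering disease pemphigus. DSG1 (ENSG00000134760, chromosome 18, 31318089 to 31357029, plus strand, GRCh38) stood at 10.4, 13.4, 11.8 and 9.57 FPKM in OGD-R 1 to 4, against 0.0892, 0.0581, 4.44 and 4.19 FPKM in Controls 1 to 4. Every OGD-R library was above every Control library, but Controls 1 and 2 were close to the floor while Controls 3 and 4 were not. A relation of this kind, every OGD-R library above every Control library, held for 4 of the 9 members tested (DSG1, DSG3, DSC3 and PKP1), where 15.2% of all genes tested were placed that way, and the reverse for 0, where 14.8% were. The log2 fold change of DSG1 was 2.35 ± 0.58 (SE; limma adjusted p = 0.0253). Leaving out OGD-R 1, 2, 3 or 4 alone ended the call (limma adjusted p between 0.0623 and 0.0743), as did a pseudocount of 0.1, with which the log2 fold change was 3.69 (limma adjusted p = 0.0597). It was 3.51 against Controls 1 and 2 (limma adjusted p = 8.99e-08) and 1.20 against Controls 3 and 4 (limma adjusted p = 1.65e-05).

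DSG3 (ENSG00000134757, chromosome 18, 31447795 to 31478702, plus strand), the desmoglein of the lower epidermis, stood at 174, 179, 174 and 173 FPKM in OGD-R 1 to 4, against 48.4, 49.8, 126 and 119 FPKM in Controls 1 to 4. It had the narrowest spread of any member in OGD-R, with the highest library 1.03 times the lowest. Controls 3 and 4 were much closer to OGD-R than Controls 1 and 2. The log2 fold change was 1.16 ± 0.33 (SE; limma adjusted p = 0.041). This call was lost without any single OGD-R library, without Control 1 or without Control 2 (limma adjusted p between 0.0657 and 0.101), with no filter on low values (0.063) and with median scaling (0.0575). Against each pair of Controls DSG3 was called higher, with a log2 fold change of 1.81 against Controls 1 and 2 (limma adjusted p = 3.53e-08) and 0.51 against Controls 3 and 4 (limma adjusted p = 5.47e-05).

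DSG2 (ENSG00000046604, chromosome 18, 31498043 to 31549008, plus strand), the most widely expressed desmoglein, stood at 113, 104, 104 and 111 FPKM in OGD-R 1 to 4, against 77.0, 85.9, 107 and 98.1 FPKM in Controls 1 to 4. It varied least of all members over the 8 libraries, with the highest 1.47 times the lowest, and the groups overlapped. Its log2 fold change was 0.24 ± 0.11 (SE; limma adjusted p = 0.179). Against Controls 1 and 2 alone it was 0.41 (limma adjusted p = 0.000883), and against Controls 3 and 4 alone 0.08 (limma adjusted p = 0.354).

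The balance among DSG1, DSG2 and DSG3 therefore differed between the groups, more so against Controls 1 and 2 than against Controls 3 and 4. DSG4, a desmoglein outside the members, was left out of the sums that follow. It stood at 19.5 to 23.3 FPKM in OGD-R and 0.632 to 4.74 FPKM in Control. Shares that include it were not computed. DSG3 made up 58.5% to 60.4% of the summed desmoglein FPKM in OGD-R, against 38.6%, 36.7%, 53.0% and 53.8% in Controls 1 to 4. DSG2 made up 35.1% to 38.0% in OGD-R, against 61.3%, 63.3%, 45.1% and 44.3% in Controls 1 to 4. DSG1 took 3.26% to 4.53% in OGD-R and at most 1.89% in any Control. None of these 3 shares overlapped between the groups, and DSG2 led in Controls 1 and 2 where DSG3 led in all other libraries. As parts of the same sum the shares are not separate results, and they were not tested. The sum of the 3 genes was 290 to 298 FPKM in OGD-R, against 125, 136, 237 and 221 FPKM in Controls 1 to 4.

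DSG1 and DSG3, the member desmogleins called higher, lie in the same gene cluster. For DSG4, which lies between them and was also called higher, no RefSeq promoter window was available. The RefSeq windows of DSG1 and DSG3, from 250 bases before to 50 bases after their starts (GRCh38.p14), are shown. They share the longest run of letters among the windows of the members. Capitals mark this run of 20 bases. It lies 120 to 101 bases before the RefSeq start of DSG1 and 78 to 59 bases before that of DSG3. These RefSeq starts differ from the gene starts printed above for DSG1 and DSG3, so distances from those would differ.
DSG1 chr18:31317910-31318209, plus strand: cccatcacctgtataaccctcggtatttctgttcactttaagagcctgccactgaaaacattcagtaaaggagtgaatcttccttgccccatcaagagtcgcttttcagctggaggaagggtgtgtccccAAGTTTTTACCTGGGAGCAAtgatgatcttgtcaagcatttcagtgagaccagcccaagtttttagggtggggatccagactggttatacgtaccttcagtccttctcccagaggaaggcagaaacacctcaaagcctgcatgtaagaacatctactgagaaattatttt
DSG3 chr18:31447491-31447790, plus strand: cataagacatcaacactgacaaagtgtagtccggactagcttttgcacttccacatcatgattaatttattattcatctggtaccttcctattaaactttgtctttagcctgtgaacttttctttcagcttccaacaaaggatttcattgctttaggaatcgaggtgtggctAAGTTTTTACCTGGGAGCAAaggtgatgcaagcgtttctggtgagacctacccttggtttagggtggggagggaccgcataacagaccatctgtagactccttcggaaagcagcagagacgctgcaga
Of the 35116 windows in the table, 2 held this run on either strand, and they were these. The longest run shared by any other pair of members was 12 bases. With the runs set against each other and no gaps, 78 of 258 paired bases were identical. Letters that the windows share at another offset are not in this count.

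Short motif letters were also looked for on both strands of the 11 windows of the 9 members that have one. The letters TGANTCA, which AP-1 factors bind, were in 0 of these windows and in 7.71% of all windows. The letters AACCNGTT, which grainyhead-like factors bind, were in 0 and in 1.73%. The letters CAGGTG, an E-box that Snail factors bind, were in 5 windows, belonging to DSG1, DSG2, DSC2, JUP and DSP, and in 20.6% of all windows. The letters TATAAA were in 0 and in 11.5%. None of these letter strings contains another. A match is a description of letters, and its absence says only that the letters are not in this window.

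The desmocollins pair with desmogleins across the junction. DSC3 (ENSG00000134762, chromosome 18, 30990008 to 31042815, minus strand), the basal epidermal form, stood at 123, 128, 129.6 and 125 FPKM in OGD-R 1 to 4, against 59.3, 62.0, 51.7 and 50.1 FPKM in Controls 1 to 4. The Controls lay together here, with Controls 3 and 4 slightly below Controls 1 and 2, and OGD-R was about as far above the one pair as above the other. The log2 fold change was 1.17 ± 0.09 (SE; limma adjusted p = 0.000171), the smallest p of the members, and it was 1.05 against Controls 1 and 2 and 1.30 against Controls 3 and 4 (limma adjusted p = 9.8e-07 and 1.04e-07).

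DSC2 (ENSG00000134755, chromosome 18, 31058840 to 31102522, minus strand), the widely expressed desmocollin, stood at 29.02, 31.1, 27.1 and 25.6 FPKM in OGD-R 1 to 4, against 10.4, 11.6, 29.9 and 28.4 FPKM in Controls 1 to 4. OGD-R matched Controls 3 and 4 and was well above Controls 1 and 2. The log2 fold change was 0.62 ± 0.34 (SE; limma adjusted p = 0.24) with all libraries. It was 1.29 against Controls 1 and 2 (limma adjusted p = 4.29e-06) and -0.05 against Controls 3 and 4 (limma adjusted p = 0.61).

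DSC1 (ENSG00000134765, chromosome 18, 31129236 to 31162856, minus strand), the desmocollin of the upper epidermis, was near the limit of detection. It stood at 0.281, 0.419, 0.0783 and 0.130 FPKM in OGD-R 1 to 4, against 0.00941, 0.0213, 0.286 and 0.312 FPKM in Controls 1 to 4. Judged by how low values are spaced, 1 fragment on its longest transcript is worth between 0.00937 and 0.0138 FPKM, so Control 1 is at about the level of a single fragment. The groups overlapped and no test was made.

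DSC3 was the main desmocollin in every library, with 80.3% to 82.9% of the summed desmocollin FPKM in OGD-R, against 85.1%, 84.25%, 63.1% and 63.6% in Controls 1 to 4. The OGD-R share lay between the pairs of Controls. The summed level was 151 to 160 FPKM in OGD-R (lowest 150.9, highest 159.8) and 69.6 to 81.9 FPKM in Control, without overlap. DSG1, DSG2 and DSG3 summed to 1.85 to 1.95 times the desmocollins in OGD-R. In Controls 1 to 4 the ratio was 1.80, 1.85, 2.89 and 2.81.

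**Figure D2:**
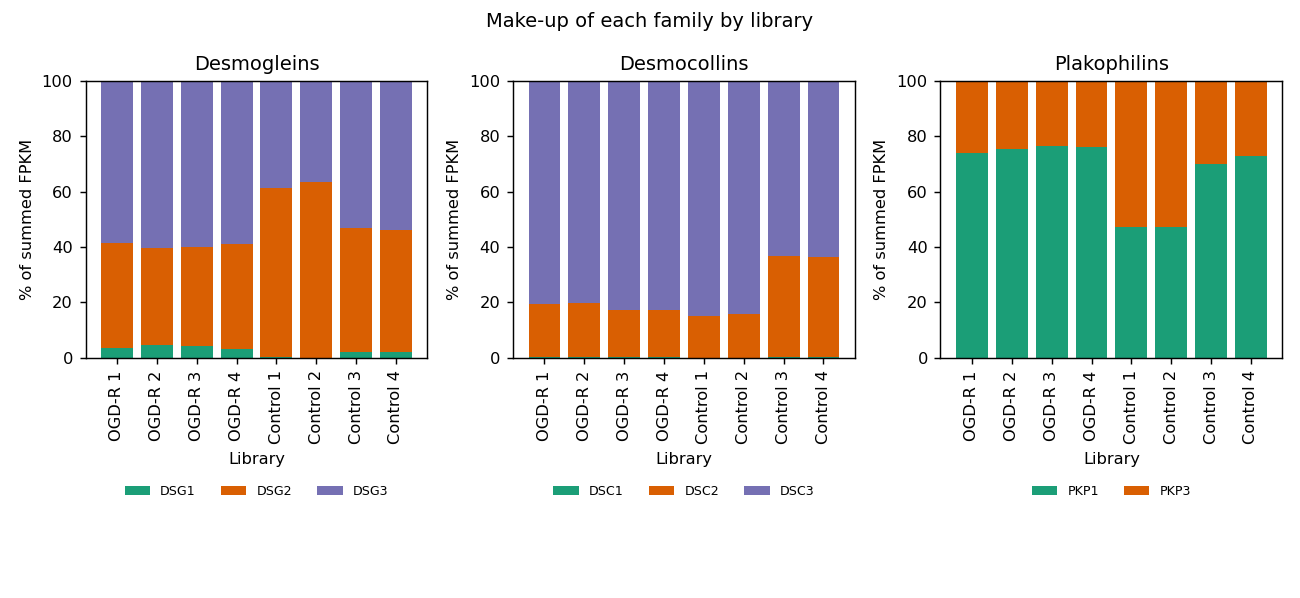
Make-up of the desmogleins (left), desmocollins (middle) and plakophilins (right) in each library, as percent of the summed FPKM of that family's members. Genes outside the members, such as DSG4, are left out. Each bar is 1 library, OGD-R 1 to 4 and then Control 1 to 4. DSG3 takes 58.5% to 60.4% of the desmogleins in OGD-R and less in every Control, and PKP3 takes 52.7% to 52.8% of the plakophilins in Controls 1 and 2 and at most 30.0% elsewhere.

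The armadillo proteins of the plaque bind the cadherin tails and desmoplakin. PKP1 (ENSG00000081277, chromosome 1, 201283452 to 201332993, plus strand), a plakophilin prominent in suprabasal epidermis, stood at 292, 275, 281 and 263 FPKM in OGD-R 1 to 4, against 102, 104, 149 and 142 FPKM in Controls 1 to 4. The lowest OGD-R library was well above the highest Control. Its log2 fold change was 1.17 ± 0.14 (SE; limma adjusted p = 0.00123), and it was 1.42 against Controls 1 and 2 and 0.93 against Controls 3 and 4 (limma adjusted p = 2.58e-07 and 2.17e-06).

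PKP3 (ENSG00000184363, chromosome 11, 392614 to 404908, plus strand), a plakophilin found in most epithelia, stood at 104, 89.997, 85.5 and 82.2 FPKM in OGD-R 1 to 4, against 115, 116, 63.6 and 52.7 FPKM in Controls 1 to 4. All OGD-R libraries were between the pairs of Controls. With all libraries the log2 fold change was 0.14 ± 0.26 (SE; limma adjusted p = 0.749). The direction turned with the Controls kept: -0.35 against Controls 1 and 2 (limma adjusted p = 0.00772) and 0.63 against Controls 3 and 4 (limma adjusted p = 0.000592). It was also negative, at -0.07, when Control 4 alone was left out (limma adjusted p = 0.856).

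PKP1 was 2.82 to 3.28 times PKP3 in OGD-R, against 0.893, 0.897, 2.34 and 2.70 times in Controls 1 to 4. The summed level of PKP1 and PKP3 was 345 to 396 FPKM in OGD-R and 195 to 220 FPKM in Control (lowest 195.2, highest 219.7). The sum varied little among the Controls while the ratio varied widely.

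JUP (ENSG00000173801, chromosome 17, 41754604 to 41786931, minus strand), plakoglobin, which serves in desmosomes and in adherens junctions, stood at 573, 522, 527 and 510.3 FPKM in OGD-R 1 to 4, against 374, 358, 637 and 632 FPKM in Controls 1 to 4. OGD-R lay between the pairs. The log2 fold change was 0.14 ± 0.21 (SE; limma adjusted p = 0.663) with all libraries, 0.54 against Controls 1 and 2 (limma adjusted p = 0.000121) and -0.25 against Controls 3 and 4 (limma adjusted p = 0.0107). The 6 cadherins summed to 0.785 to 0.874 of the JUP level in OGD-R, against 0.521, 0.584, 0.5004 and 0.475 in Controls 1 to 4, without overlap.

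DSP (ENSG00000096696, chromosome 6, 7541575 to 7586717, plus strand), the plakin that anchors keratin filaments, stood at 244, 248, 242 and 234 FPKM in OGD-R 1 to 4, against 101, 107, 252 and 255 FPKM in Controls 1 to 4. As for DSC2, OGD-R was level with Controls 3 and 4 and above Controls 1 and 2. DSP had a log2 fold change of 0.57, with an SE of 0.32 (limma adjusted p = 0.248). It was 1.21 against Controls 1 and 2 (limma adjusted p = 4.15e-07) and -0.07 against Controls 3 and 4 (limma adjusted p = 0.355).

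Set side by side, the members fell into several patterns. Against Controls 1 and 2, 8 of the 9 tested members were called higher (22.8% of all genes were) and 1, PKP3, lower (32.4%). Against Controls 3 and 4, 5 were called higher (39.2%), namely DSC3, DSG1, PKP1, PKP3 and DSG3, and 1, JUP, lower (28.4%). These fits share the OGD-R libraries. The median log2 fold change of the members was 1.21 against Controls 1 and 2, where that of all genes tested was -0.05, and 0.51 against Controls 3 and 4, where it was 0.09. DSC3, PKP1, DSG3 and DSG1 were higher against either pair, and for DSC3 the 2 sizes were closest. Among pairs of members, DSC2 and DSP had the most alike pattern, with a root mean square difference of 0.0658 between their centred log2 values over the 8 libraries; the next pair, DSG2 and JUP, was at 0.186.

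**Figure D3:**
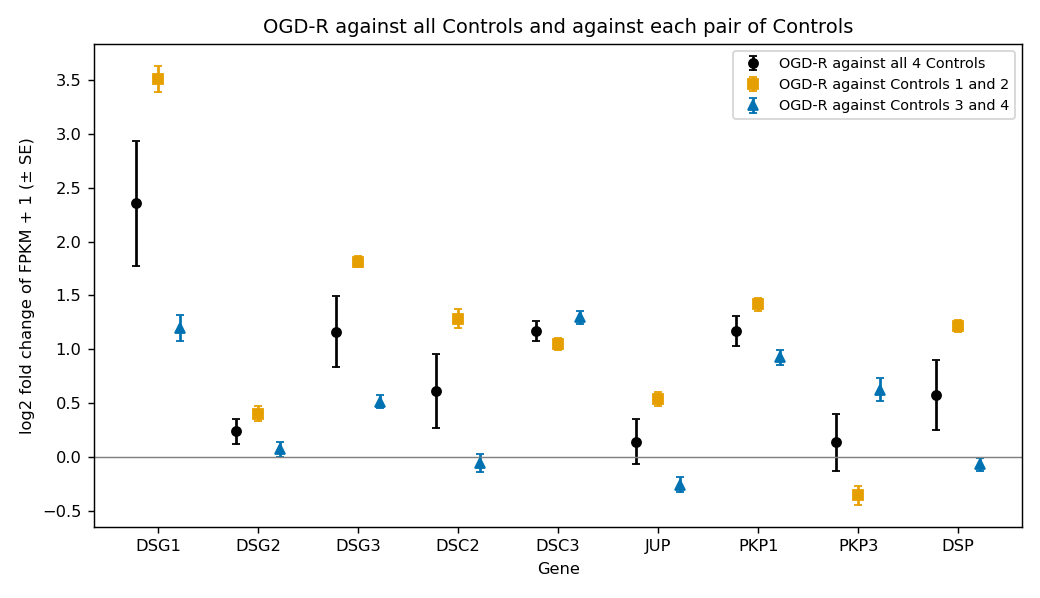
Log2 fold change (FPKM + 1) of the 9 tested members with its SE, for OGD-R against all 4 Controls (black circles), against Controls 1 and 2 (orange squares) and against Controls 3 and 4 (blue triangles). The 3 values lie closest together for DSC3 (1.05 to 1.30) and DSG2 (0.08 to 0.41), and they lie on different sides of 0 for DSC2, JUP, PKP3 and DSP.

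The 6 cadherin genes form a cluster on chromosome 18, from 30990008 to 31549008 (GENCODE 29, GRCh38), in the order DSC3, DSC2, DSC1, DSG1, DSG4, DSG3 and DSG2. DSC3, at one end, and DSG1 and DSG3, in the other part, were called higher, while DSC2 and DSG2 were not. DSG4, the desmoglein of hair and upper epidermis, lies between DSG1 and DSG3. It stood at 21.98, 19.5, 23.3 and 19.5 FPKM in OGD-R 1 to 4, against 0.886, 0.632, 4.74 and 4.38 FPKM in Controls 1 to 4, and its log2 fold change was 2.82 ± 0.42 (SE; limma adjusted p = 0.00317). Its OGD-R level was above that of DSG1 in each OGD-R library. How reads were divided between related desmogleins is not given, nor whether counting used strand, so reads of DSC1, DSC2, DSG1, DSG4 and DSG2 cannot be told apart from those of the overlapping antisense genes DSCAS, AC012417.1, DSG1-AS1 and DSG2-AS1, which were not analysed here. The nearest tested genes to the left, KCTD1 and CDH2, the N-cadherin gene, lie far from the cluster start at 30990008. KCTD1 ends at 26657401 and CDH2 at 28177446. KCTD1 had a log2 fold change of 0.83 (limma adjusted p = 0.00517) and CDH2 of -0.98 (limma adjusted p = 0.0102). On the right, B4GALT6 and TRAPPC8 had -0.27 and 0.06 and did not pass (limma adjusted p = 0.565 and 0.664).

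**Figure D4:**
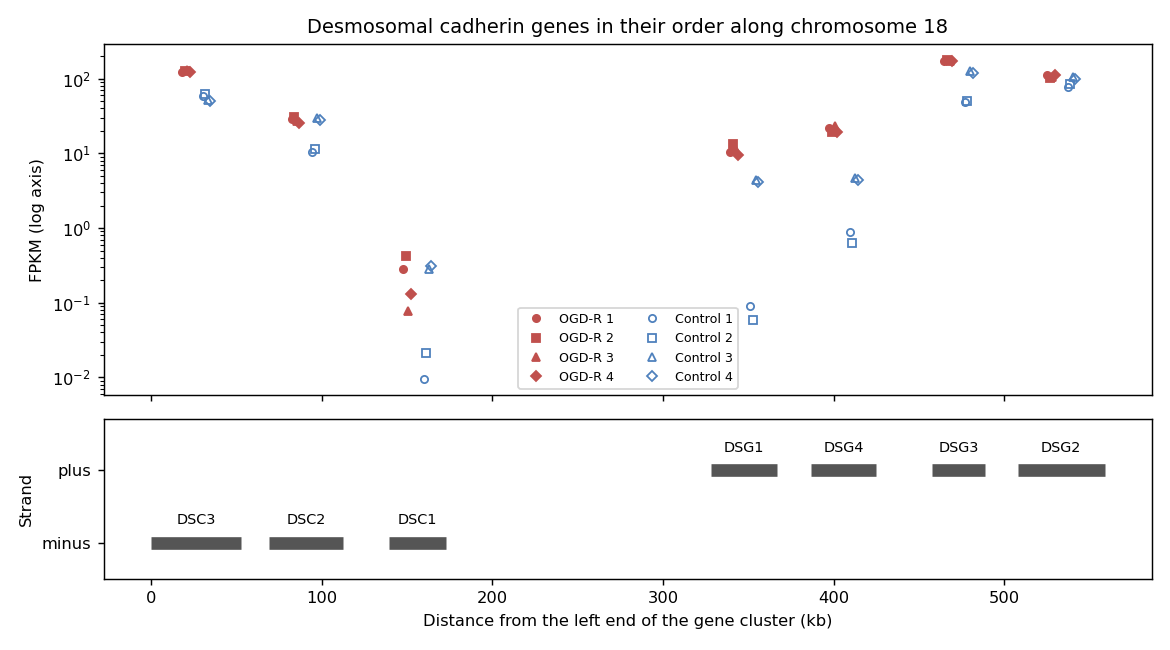
Desmosomal cadherin genes in their order along chromosome 18, with distance from the left end of the cluster in kb; the upper panel gives FPKM on a log axis for each library (filled red, OGD-R; open blue, Control, set slightly apart sideways) and the lower panel each gene's extent and strand. The desmocollins lie on the minus strand and the desmogleins on the plus strand, and DSG1 and DSG4 show the widest gap between OGD-R and Controls 1 and 2.

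Among genes listed as companions of the desmosome, not all of them parts of it, 3 of 11 tested rose and 1 fell. Of all genes tested, 10.2% rose and 9.69% fell. The median log2 fold change of the listed genes was 0.03. Against Controls 1 and 2 alone 5 were higher and 2 lower, and against Controls 3 and 4 alone 5 higher and 3 lower. Besides DSG4, these were EVPL and PPL, the plakins envoplakin and periplakin of the cornified envelope, and PKP2, the plakophilin of heart and simple epithelia. EVPL averaged 21.8 ± 2.22 FPKM in OGD-R cells and 11.02 ± 1.40 FPKM in Control cells (limma adjusted p = 0.00135; here and in what follows ± is the SD over 4 libraries). PPL averaged 61.8 ± 3.62 FPKM in OGD-R cells and 35.2 ± 9.88 FPKM in Control cells (limma adjusted p = 0.0181), a call lost without OGD-R 1, 2 or 3 (highest limma adjusted p = 0.0582). PKP2 fell, averaging 9.04 ± 0.759 FPKM in OGD-R cells and 15.55 ± 1.56 FPKM in Control cells (limma adjusted p = 0.00228). PERP, a desmosomal membrane protein, was at 219 FPKM in OGD-R and 182 FPKM in Control on average and did not pass (limma adjusted p = 0.112).

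Of 10 adherens junction genes tested, whose proteins link cadherins to actin beside the desmosomes, 2 rose and 0 fell (10.2% and 9.69% of all genes tested), with a median log2 fold change of 0.05. Against Controls 1 and 2 alone 6 were higher and 1 lower, and against Controls 3 and 4 alone 2 higher and 5 lower. The risers were CTNND1, encoding p120-catenin, with 128.5 ± 3.97 FPKM in OGD-R cells and 81.3 ± 11.1 FPKM in Control cells (limma adjusted p = 0.00481), and NECTIN1, with 56.45 ± 4.12 FPKM in OGD-R cells and 33.1 ± 4.25 FPKM in Control cells (limma adjusted p = 0.00291). CDH1, the E-cadherin gene, did not pass, and its OGD-R values lay between the pairs of Controls (limma adjusted p = 0.59).

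Of 15 keratins tested, the proteins of the filaments that desmoplakin anchors, 7 rose and 2 fell (10.2% and 9.69% of all genes tested), with a median log2 fold change of 0.42. Against Controls 1 and 2 alone 9 were higher and 4 lower, and against Controls 3 and 4 alone 9 higher and 5 lower. KRT5, of the basal layer, averaged 4973 ± 116 FPKM in OGD-R cells and 2504 ± 486 FPKM in Control cells (limma adjusted p = 0.00187). KRT15, another basal keratin, and KRT1, of suprabasal cells, had log2 fold changes of 2.98 and 3.66 (limma adjusted p = 0.000256 and 0.00436). KRT18, of simple epithelia, fell by 1.27 on the log2 scale (limma adjusted p = 0.00302). KRT8, its partner, had a log2 fold change of -0.14 and did not pass (limma adjusted p = 0.78), and KRT19, also of simple epithelia, rose by 0.69 (limma adjusted p = 0.0106). KRT6A fell by 0.26 (limma adjusted p = 0.0296), a call lost without Control 1, Control 3 or any single OGD-R library (highest limma adjusted p = 0.104), with no filter on low values, with scaling without mitochondrial genes or with library weights. Its copies KRT6B and KRT6C are near-identical, so its value is uncertain.

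The genes whose pattern over the 8 libraries was most like that of a member were sought by the root mean square difference of centred log2 values, for the 7 tested members spanning at least 1 on the log2 scale. For DSC3 they were IKZF2 and NANOS1 (0.0832 and 0.0833), and for PKP1 CELSR2 and KLK8 (0.0458 and 0.0777). For DSG3 they were KLF9 and SESN3 (0.0597 and 0.0936), and for DSG1 CRABP2 and SCEL (0.163 and 0.217). DSC2 was nearest to SULT2B1 and DAPK2 (0.0912 and 0.0918), and DSP to DAPK2 and EHF (0.0645 and 0.0726), so DAPK2 was named for both. PKP3 was nearest to NUP85 and NR2F6 (0.0516 and 0.0528). DSG2 and JUP spanned 0.55 and 0.83 and were not matched. The values compared were log2(FPKM + 1), so genes of unlike level can match on this scale without matching in fold change. In Controls 1 and 2, DSG1 stood at 0.0892 and 0.0581 FPKM and CRABP2 at 6.75 and 5.15 FPKM.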

How the data were processed

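RNA of 8 HaCaT libraries, grouped by their titles, was analysed from 1 table per library. No header names a unit. The deposited values were taken to be FPKM, since they do not sum to a common total and the lowest values of single-exon genes were spaced by a constant divided by length. This spacing was met within 0.5% by 17 to 30 low values per library, so it rests on few values. The authors' aligner, counting tool, build and annotation: not given in the sources used here. Per the labels' protocols, total RNA was used; the protocols name 2 different library kits. The value column of Control 3 carries a shorter name than the others.

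The 11740 genes averaging 1 FPKM or more were tested as log2(FPKM + 1) with limma 3.58.1 (R 4.3.3, intensity trend) together, with Benjamini-Hochberg adjustment at 0.05; a fold change on this scale understates low genes. The test was tried on data simulated with the OGD-R spread in both groups. This trial does not cover the wider spread of the Controls or their 2 pairs. FPKM is relative to the library total. Members, lists and the Control pairs were chosen with earlier results of these data known. From each list the up to 3 called genes of smallest p in each direction are named. PERP, CDH1, KRT8, KRT19, SPINK5 and DST were chosen after their values were seen. Gene coordinates come from GENCODE 29 by ID (GRCh38); promoter windows are RefSeq's. Figures used matplotlib 3.10.9 in Python 3.11.15. Alternatives were other filters, pseudocounts, scalings and weights, no trend, a replicate block, and libraries left out.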

Additional observations from a re-analysis of the deposited data

Results flagged for a closer look

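DSG3 in OGD-R had a highest library, OGD-R 2 at 178.8 FPKM, set apart from the other three, its gap to the next library being 0.856 of the group's range. The whole range was narrow, with the highest library 1.03 times the lowest. This was 1 of 20 sets of 4 libraries examined, and chance flags about 1 in 20.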

How the results depend on the processing

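DSC3 and PKP1 kept their direction and call under every alternative run. With one library left out, log2 fold changes ranged from 1.12 to 1.22 for DSC3, 1.09 to 1.26 for PKP1, 1.961 to 2.75 for DSG1, 0.94 to 1.39 for DSG3, 0.16 to 0.32 for DSG2, 0.37 to 0.85 for DSC2, 0.35 to 0.79 for DSP, 0.0004 to 0.28 for JUP and -0.0708 (without Control 4) to 0.30 for PKP3. Members called higher then numbered 2 to 4 and lower 0, and all genes called higher 711 to 1426 and lower 561 to 1312. DSG1 was no longer called with a pseudocount of 0.1 (3.69) and DSG3 with no filter (1.16) or median scaling (1.14).

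Without Controls 1 and 2, values were -0.0503 for DSC2, -0.25 for JUP, -0.066 for DSP and 0.63 for PKP3, with 1 member called lower and 4603 genes higher and 3337 lower. Without Controls 3 and 4, they were 0.41 for DSG2, 1.29 for DSC2, 0.54 for JUP, 1.21 for DSP and -0.35 for PKP3, with 8 members higher, 1 lower, and 2673 genes higher and 3807 lower. A mean of at least 5 FPKM left 689 genes higher, with fewer genes tested. For the other changes the cause was not tested.

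Replicate numbers showed no clear pairing of single libraries. Deviations of same-numbered libraries correlated between 0.045 and 0.0646, and not every library correlated best with its own number. OGD-R 1 and 2 correlated positively with Controls 1 and 2 and negatively with Controls 3 and 4, and OGD-R 3 and 4 did the reverse. The highest of these values was 0.113, and a block of libraries 1 and 2 against 3 and 4 was not fitted. With the replicate block, DSG1 (2.35, limma adjusted p = 0.0536) and DSG3 (1.16, limma adjusted p = 0.0692) were not called, leaving 2 members and 625 genes higher and 507 lower. Of the related genes named, PPL, KRT6A, ST14 and TGM1 also lost their call with it. FPKM carries no depth, and DSC1 is limited by its few fragments.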

Other observations

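Transcription factors linked to desmosomal or epidermal genes changed in 3 of 9 tested, with 2 higher and 1 lower, where 10.2% of all genes tested were higher and 9.69% lower. There were 6 higher and 2 lower against Controls 1 and 2 alone, and against Controls 3 and 4 alone 3 higher and 4 lower. GRHL3, a grainyhead-like factor needed for barrier formation, averaged 16.4 ± 1.65 FPKM in OGD-R cells and 5.66 ± 0.300 FPKM in Control cells (± SD over 4 libraries; limma adjusted p = 9.54e-05). CEBPA, a factor of keratinocyte differentiation, averaged 6.86 ± 0.917 FPKM in OGD-R cells and 2.74 ± 0.229 FPKM in Control cells (± SD over 4 libraries; limma adjusted p = 0.00054). SNAI2, a Snail-family repressor, had 38.8, 40.1, 40.9 and 46.5 FPKM in OGD-R 1 to 4, against 66.4, 74.9, 176 and 187 FPKM in Controls 1 to 4 (limma adjusted p = 0.0237), a call lost without Control 3 or any single OGD-R library (highest limma adjusted p = 0.068).

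Of 10 tested proteases and inhibitors that act on desmosomal cadherins, 1 rose, a share near the 10.2% of all genes tested, and 0 fell, where 9.69% did. There were 6 higher and 1 lower against Controls 1 and 2 alone, and against Controls 3 and 4 alone 4 higher and 6 lower. The riser was ST14, the membrane protease matriptase, with 75.7 ± 6.48 FPKM in OGD-R cells and 58.5 ± 3.76 FPKM in Control cells (± SD over 4 libraries; limma adjusted p = 0.0282), a call lost without Control 2 or any single OGD-R library (highest limma adjusted p = 0.0786) or with library weights. SPINK5, an inhibitor of kallikreins, had 9.69, 10.5, 9.87 and 7.87 FPKM in OGD-R 1 to 4, against 1.73, 1.89, 7.14 and 7.38 FPKM in Controls 1 to 4, and did not pass (limma adjusted p = 0.0853). Of 9 tested suprabasal genes, 2 rose and 0 fell, KRT1 and TGM1, the call of TGM1 (limma adjusted p = 0.0381) being lost without Control 1, Control 2 or any single OGD-R library (highest limma adjusted p = 0.0944), with no filter or with median scaling. These shares stand beside 10.2% higher and 9.69% lower over all genes tested. There were 8 suprabasal genes higher and 0 lower against Controls 1 and 2 alone, but against Controls 3 and 4 alone 4 were higher and 3 lower, so the absence of lower calls depends on the Controls. Of 12 basal layer and hemidesmosome genes, 4 rose and 6 fell (10.2% and 9.69% of all genes tested). There were 4 higher and 7 lower against Controls 1 and 2 alone, and against Controls 3 and 4 alone 5 higher and 6 lower. KRT14 rose with KRT5 and KRT15, its call being lost with no filter on low values. DST, a plakin gene, also rose, by 0.93 on the log2 scale (limma adjusted p = 0.0109). LAMA3, a chain of laminin 332, fell by 2.13 on the log2 scale (limma adjusted p = 0.00073). PLEC, another plakin of the hemidesmosome, fell by 0.87 and ITGB1, an integrin subunit, by 0.52 (limma adjusted p = 0.00237 and 0.00317).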
